A study of Mus musculus with 12 samples.

Results

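The 10 transcripts described here encode the interferon-inducible parts of the machinery that cuts proteins into peptides and loads them onto MHC class I. They were chosen by symbol from the 27179 genes of the count table: the catalytic immunoproteasome subunits Psmb8, Psmb9 and Psmb10, the proteasome activator subunits Psme1 and Psme2, the peptide transporter subunits Tap1 and Tap2, the loading proteins Tapbp and Tapbpl, and the trimming peptidase Erap1. All 10 were found, and all 10 passed the filter on low counts that left 12910 genes for testing. The transactivator Nlrc5, which drives several of these genes, is described with the regulators.

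The proteasome degrades proteins in the cytosol. Under interferon gamma its standard catalytic subunits are replaced in new particles by immunosubunits, and the PA28 activator can cap the particle. The resulting peptides are pumped into the endoplasmic reticulum by the TAP transporter, trimmed there by ERAP1, and placed on MHC class I with the help of tapasin, which holds empty class I molecules beside TAP. Tumour cells present neoantigens through this route.

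RNA was sequenced from MC38-idAdpgkG, a line made from the mouse colon carcinoma MC38 (strain C57BL/6) that carries a stably transfected, inducible and degradable Adpgk(R304M) neoantigen fused to turboGFP. Every group, the control included, received 20 ng/mL mouse IFNg, so no library shows these genes without the cytokine. Control cells had IFNg alone for 51 h, and doxycycline cells had IFNg with 1 µg/mL doxycycline, the inducer of the transgene, for 51 h. In the dTAG-13 group IFNg was given for 48 h and 1 µM dTAG-13, a small molecule that recruits tagged proteins to an E3 ligase for proteasomal degradation, was then added for 3 h, while the doxycycline plus dTAG-13 group had both IFNg and doxycycline for 48 h before dTAG-13 for 3 h. Each group was 1 culture measured as 3 technical libraries, so every error and p-value below covers the spread between libraries of a culture and not between cultures, and the effect of a treatment cannot be told apart from a difference between cultures.

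The libraries held 22165538 to 32809573 counts, with TMM scaling factors of 0.9647 to 1.0349. The labelled tissue is colon, but all 10 colon epithelial markers had a mean under 1 CPM (a read count scaled to the size of its library) and Epcam and Cdx2 had no count. The 5 leukocyte markers summed to at most 0.0644 CPM, with Cd3e at 0. The 5 fibroblast markers summed to 302.0 to 373.0 CPM per library, carried by Pdgfra and Dcn, with Col1a1 and Lum under 1 CPM, and the 3 endothelial markers summed to 1.94 to 4.29 CPM.

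Psmb9, Tap1, Psmb8 and Tap2 lie side by side on mouse chromosome 17 (GRCm38.p6, RefSeq annotation), where the 34.3 kb from Psmb9 to Tap2 hold these 4 genes and no other RefSeq gene. Psmb9 lies on the minus strand at chr17:34182030-34187330 and Tap1 on the plus strand at chr17:34187556-34197225, so that they are transcribed away from each other from starts with 225 bases between them. Psmb8 lies at chr17:34198195-34201454 and Tap2 at chr17:34204479-34216321, both on the plus strand, and Tapbp lies 252.7 kb before Psmb9 at chr17:33919478-33929290. The stretch between the Psmb9 and Tap1 starts is printed because the transcripts on its sides moved in opposite directions with dTAG-13. Among doxycycline cells, however, the fall of Tap1 was not called (-0.005) with an offset for transcript length and GC content, described below. The stretch is given on the plus strand, with Tap1 to its right and the CCAAT box, the letters bound by NF-Y, in capitals.
Psmb9-Tap1, chr17:34187331-34187555: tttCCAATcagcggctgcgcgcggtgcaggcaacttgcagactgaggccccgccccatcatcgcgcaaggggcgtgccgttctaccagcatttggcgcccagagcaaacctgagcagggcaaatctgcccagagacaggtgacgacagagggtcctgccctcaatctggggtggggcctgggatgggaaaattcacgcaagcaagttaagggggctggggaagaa

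RefSeq promoter windows, from 250 bases before to 50 bases after each start, matched 8 of the 10 genes. They were searched on both strands for the interferon-stimulated response element core (GAAA and GAAA with any 2 bases between) and for CCAAT, which can share bases at their ends, because IFNg induces factors that bind the first. The response element core was found in 2 of the 8 genes, Erap1 and Psme1, and in 3.443% of 32851 windows of 300 bases genome-wide. CCAAT was found in 3 of the 8 genes, Psmb9, Tap1 and Tapbp, beside 37.408% of all windows. The matches of Psmb9 and Tap1 are the same site, chr17:34187334-34187338, which lies in both windows. A match describes letters only. In the sites of Erap1 and Psme1 below, each given on the strand of its gene (plus in both) with 8 bases on each side, the capitals mark the match, whose coordinates are given. The response element core appears there as its reverse complement.
Erap1, chr13:74639849-74639858: accttcacTTTCACTTTCggtcccgg
Psme1, chr14:55578503-55578512: agctgtgcTTTCGCTTTCccttcccg

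Per kilobase of transcript, the most abundant of the 10 in control cells was Psmb8, with 174.8 ± 7.6 CPM per kb (SD, n = 3). By its mean over all 12 libraries, Psmb8 stood above 97.4% of the 11745 tested genes with a known transcript length. Tapbp (163.8), Psmb10 (158.8), Psme1 (150.9) and Tap1 (137.5 CPM per kb) came next, each with its 3 libraries above those of the gene after it. Psmb9 stood at 77.89 and Tap2 at 40.15 CPM per kb. Erap1 (29.63) and Psme2 (27.59 CPM per kb) had overlapping libraries, and Tapbpl was lowest, with 14.53 CPM per kb. By its mean over all 12 libraries, Tapbpl stood above 59.7% of the same 11745 genes. The order moved with treatment. In doxycycline cells Tapbp led with 186.5 CPM per kb, whereas in both groups with dTAG-13 Psmb8 led, followed by Psme1 and Psmb10. Psme2 passed Erap1 in dTAG-13 cells, with 35.78 against 25.17 CPM per kb.

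**Figure D1:**
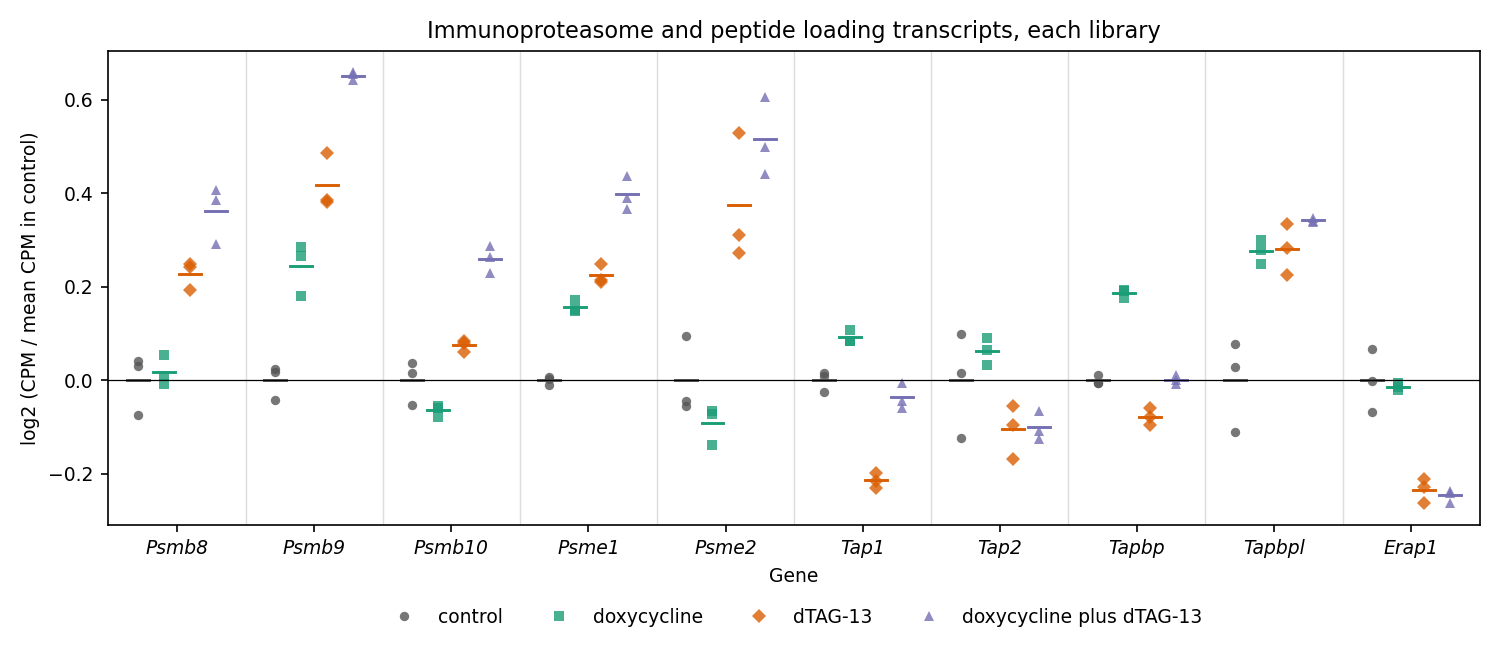
Each point is 1 library, plotted as log2 of its CPM over the mean CPM of the control libraries (vertical axis) for the 10 genes (horizontal axis), coloured by treatment group. Psmb9 and Psme2 spread the most between groups, and Tap1, Tapbp and Erap1 lie lower in dTAG-13 cells than in control cells.

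In the comparison of doxycycline with control cells, 5 of the 10 genes rose and 1 fell at an adjusted p under 0.05 in edgeR's quasi-likelihood test, where 33.5% of all tested genes were called (14.8% higher and 18.7% lower). Library size scaling gave 5 higher and none lower, beside 2546 higher and 1607 lower of all 12910 tested genes. The libraries of the groups did not overlap for 7 of the 10, beside 43.9% of all genes. Both groups were under IFNg and differ in doxycycline itself and in the induction of the neoantigen transgene, which cannot be told apart here. The genes that rose were Tapbpl, Psmb9, Tapbp, Psme1 and Tap1, by log2 fold changes of 0.09 to 0.28, and the median of all 10 was 0.076 against -0.01 over all tested genes. With dTAG-13 against control all 10 were called, 6 higher and 4 lower, beside 62.1% of all genes (30.0% higher and 32.1% lower). Scaling by library size alone gave 6 higher and 2 lower, since Tap2 and Tapbp were then not called. Of all tested genes it called 5256 higher and 3115 lower. For 9 of the 10, all but Tap2, the groups did not overlap, beside 65.5% of all genes. Among doxycycline cells dTAG-13 raised 5 and lowered 4, beside 64.1% called overall (30.7% higher and 33.4% lower), and the groups did not overlap for any of the 10, beside 67.2%. The medians of the 10 were 0.149 and 0.154 in these comparisons, against 0.019 and 0.003 over all tested genes. All 5 proteasome genes rose in both dTAG-13 comparisons. With an offset for transcript length and GC content, described below, 2 of these rises were not called. They were Psmb10 against control (-0.025) and Psme1 among doxycycline cells (-0.003). Of the 5 transport, loading and trimming genes, 4 fell in both under TMM scaling (2 against control under library size scaling), and the exception each time was Tapbpl.

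The dTAG-13 comparisons also carried a trend with transcript length over all genes. Across 11745 tested genes with a known transcript length, the median log2 fold change with dTAG-13 against control went from 0.236 in the shortest eighth to -0.285 in the longest, and among doxycycline cells from 0.378 to -0.382. Against this, doxycycline against control gave -0.037 and 0.024 in the same eighths. The proteasome genes are the short ones here, with mean RefSeq transcript lengths of 878 (Psme2), 1112 (Psme1), 1311 (Psmb10), 1352 (Psmb9) and 1628 bases (Psmb8). The rest measure 2352 (Tapbpl), 2744 (Tapbp), 2784 (Tap1), 3442 (Tap2) and 5644 bases (Erap1). A refit with an offset for transcript length and GC content (the length and GC offset) therefore stands beside the dTAG-13 results below whose call, direction or size it changes most. With it, dTAG-13 against control called 5 of the 10 genes higher and 2 lower, and the comparison among doxycycline cells 4 higher and 2 lower, with medians of 0.064 and 0.056. Over all 11745 genes the same refit called 2690 higher and 3843 lower against control, with a median of -0.018. Among doxycycline cells it called 2848 higher and 3345 lower, with a median of -0.009.

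**Figure D2:**
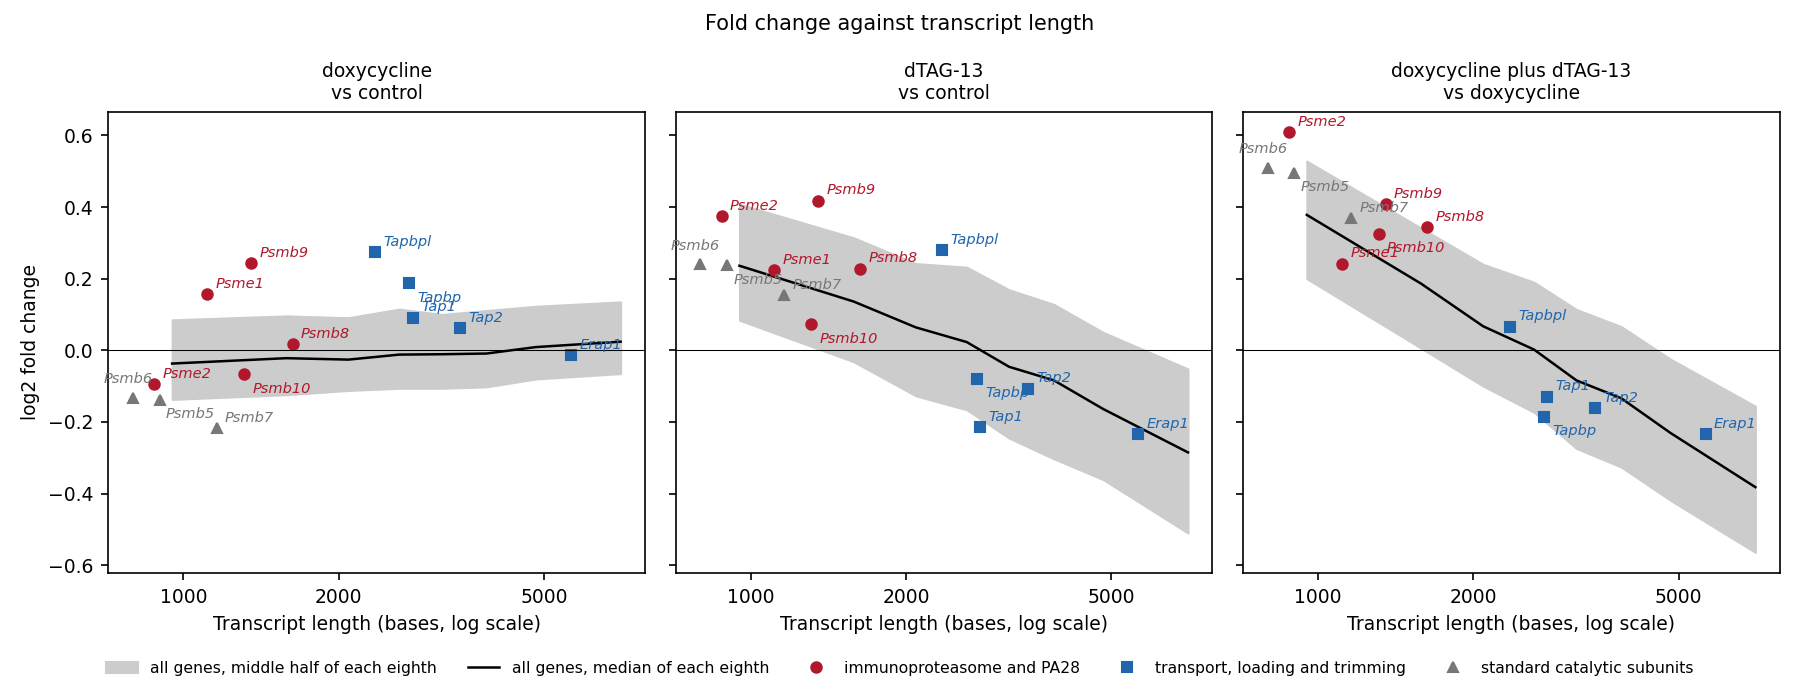
Log2 fold change (vertical axis) against transcript length in bases (horizontal log axis) for 3 comparisons, with the line joining the medians of 8 equal groups of genes by length and the band covering the middle of each group. Red circles (immunoproteasome and PA28) sit at the short end, blue squares (transport, loading, trimming) further right and grey triangles (standard subunits) at the far left. With dTAG-13 the line slopes down, and in dTAG-13 against control Psmb9 (0.418) and Tapbpl (0.28) lie above the band and Tap1 (-0.215) below it.

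Psmb9, also called LMP2, replaces the standard subunit Psmb6, and its transcript had the widest range of group means of the 10, 0.652 on the log2 scale. Control libraries gave 107.1, 106.6 and 102.3 CPM, doxycycline libraries 119.3, 128.4 and 126.7, dTAG-13 libraries 147.5, 137.5 and 137.2, and libraries with both 164.3, 165.9 and 166.3 CPM. The 4 groups did not overlap at any point, and stood in that order. With doxycycline Psmb9 rose by 0.24 (SE 0.031, adjusted p = 5e-08), and it rose by 0.42 (SE 0.031, adjusted p = 4.1e-15) with dTAG-13. The second value was 0.31 with the length and GC offset. Among doxycycline cells it rose by 0.41 with dTAG-13 (adjusted p = 5.13e-15), or 0.23 with the offset.

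Psmb8, or LMP7, replaces Psmb5. Its control libraries gave 292.7, 290.7 and 270.3 CPM and its doxycycline libraries 286.5, 282.9 and 295.3, which overlap (log2 fold change 0.018, SE 0.03, adjusted p = 0.7). With dTAG-13 the values were 338.2, 325.4 and 336.5 CPM, and with both agents 377.5, 348.3 and 371.9 CPM. All 6 libraries with dTAG-13 were above all 6 without it. The log2 rise was 0.23 against control (SE 0.03, adjusted p = 2.47e-07) and 0.34 among doxycycline cells (SE 0.03, adjusted p = 1.12e-10), values that the length and GC offset lowered to 0.169 and 0.245, both still called.

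Psmb10, or MECL-1, replaces Psmb7, and of the 3 immunosubunits it had the largest interaction value, given below. Control libraries gave 210.4, 213.5 and 200.5 CPM, doxycycline libraries 196.9, 199.7 and 200.3, dTAG-13 libraries 217.0, 220.5 and 219.8, and those with both agents 249.9, 244.1 and 253.8 CPM. Doxycycline libraries were lowest and those with both agents highest, with no overlap between groups. Psmb10 fell by 0.066 with doxycycline (SE 0.026, adjusted p = 0.0445). That call was lost in 5 other refits and on leaving out control library 1 or 2, any doxycycline library, dTAG-13 library 1 or 2, or library 1 with both agents. The values ranged from -0.095 to -0.037 over the 12 libraries left out in turn. With dTAG-13 against control the rise was 0.074 (SE 0.026, adjusted p = 0.0117). It was not called without control library 3 (0.041), dTAG-13 library 2 (0.062) or dTAG-13 library 3 (0.064), and was -0.025 (adjusted p = 0.409) with the length and GC offset. Among doxycycline cells dTAG-13 raised it by 0.33 (SE 0.026, adjusted p = 1.85e-14), and by 0.159 with the offset.

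Psme1 and Psme2 encode the alpha and beta subunits of PA28. Psme1 gave 168.6, 168.2 and 166.7 CPM in control, 186.3, 186.0 and 188.9 in doxycycline, 199.5, 194.2 and 194.6 in dTAG-13 and 216.5, 227.3 and 220.0 CPM in cells with both agents. The 4 groups were separate and stood in that order. Doxycycline raised Psme1 by 0.16 (SE 0.025, adjusted p = 4.11e-06) and dTAG-13 by 0.22 (SE 0.025, adjusted p = 3.67e-10) against control. The dTAG-13 rise was 0.069 (adjusted p = 0.0133) with the length and GC offset. Among doxycycline cells it was 0.24 (adjusted p = 4.01e-11) without the offset and -0.003 (adjusted p = 0.925) with it. The RefSeq span of Psme1, chr14:55578494-55581527, overlaps the protein-coding gene Emc9.

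Psme2 was low in both groups without dTAG-13, with 25.89, 23.51 and 23.32 CPM in control and 22.01, 23.04 and 23.16 CPM in doxycycline libraries (log2 fold change -0.094, SE 0.063, adjusted p = 0.273). With dTAG-13 it gave 34.96, 29.28 and 30.07 CPM, and with both agents 34.28, 36.9 and 32.91 CPM. All 6 libraries with dTAG-13 were above all 6 without it, and the dTAG-13 group overlapped with that of both agents. Its log2 rise of 0.37 against control (SE 0.061, adjusted p = 1.31e-06) became 0.129 (adjusted p = 0.0496) with the length and GC offset, and the rise of 0.61 among doxycycline cells (SE 0.062, adjusted p = 4.34e-11), the largest of the 10 genes in any of the comparisons, became 0.252 (adjusted p = 0.000288). Psme2 shares sequence with its near copy Psme2b, not analysed here: 62.1% and 59.3% of the 50-base windows of its 2 curated transcripts also occur in that copy, so how reads were divided makes its counts uncertain.

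Tap1 and Tap2 form the transporter. Tap1 gave 385.4, 387.0 and 376.2 CPM in control and 412.3, 405.8 and 405.6 CPM in doxycycline cells. In dTAG-13 cells it gave 326.4, 329.7 and 333.7 CPM, and with both agents 381.2, 367.5 and 370.9 CPM. The 3 dTAG-13 libraries were the lowest of the 12 and the doxycycline libraries the highest. With doxycycline Tap1 rose by 0.091 (SE 0.022, adjusted p = 0.00113), and it fell by 0.22 with dTAG-13 against control (SE 0.022, adjusted p = 4.49e-11), or by 0.115 with the length and GC offset. Its fall among doxycycline cells was 0.13 (adjusted p = 3.12e-06), and with the offset the value was -0.005 and not called. Psmb9, which starts 225 bases away on the other strand, rose in both of those comparisons.

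Tap2 gave 148.0, 139.7 and 126.9 CPM in control, 141.3, 144.5 and 147.1 CPM in doxycycline, 133.0, 123.0 and 129.4 CPM in dTAG-13 and 126.7, 128.1 and 132.0 CPM in cells with both agents. Control and dTAG-13 libraries overlapped, and the fall of 0.11 between them (SE 0.044, adjusted p = 0.0456) was lost on leaving out control library 1 or 2, doxycycline library 2, dTAG-13 library 2 or 3, or library 1 or 2 with both agents. Over the 12 libraries left out in turn it ranged from -0.170 to -0.061. It was also lost with library size scaling (-0.015) and turned to 0.059 with the length and GC offset, not called. Among doxycycline cells the fall was 0.16 (SE 0.044, adjusted p = 0.00459), with 0.036 and no call under the offset. No difference passed the test for doxycycline against control (0.061, SE 0.044, adjusted p = 0.321), but it was called without control library 1, with a value of 0.109.

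Tapbp, the gene of tapasin, gave 453.1, 447.9 and 447.3 CPM in control, and all 3 doxycycline libraries stood higher, at 513.7, 507.9 and 513.1 CPM. It gave 431.2, 425.3 and 420.3 CPM with dTAG-13 and 446.8, 449.8 and 453.0 CPM with both agents, so cells with both were level with control cells. Its log2 rise with doxycycline was 0.19 (SE 0.021, adjusted p = 1.45e-09). With dTAG-13 it fell by 0.079 (SE 0.021, adjusted p = 0.00109) against control under TMM scaling, but the value was 0.013 with library size scaling and 0.012 with the length and GC offset, neither called. Among doxycycline cells the fall was 0.19 (SE 0.021, adjusted p = 2.45e-10), or 0.073 with the offset.

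Tapbpl encodes TAPBPR, a relative of tapasin that edits peptides without binding TAP. The values were 34.83, 36.07 and 31.62 CPM in control, 41.47, 42.08 and 40.63 CPM in doxycycline, 41.58, 43.09 and 39.95 CPM in dTAG-13 and 43.24, 43.26 and 43.5 CPM in cells with both. Control stood below all other groups, which were close together. The log2 rise was 0.28 with doxycycline (SE 0.047, adjusted p = 1.11e-05) and 0.28 with dTAG-13 against control (SE 0.047, adjusted p = 2.01e-06), and the latter was 0.281 with the length and GC offset. No difference with dTAG-13 passed the test among doxycycline cells (0.066, SE 0.047, adjusted p = 0.218).

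Erap1, the aminopeptidase that shortens peptide precursors in the endoplasmic reticulum, gave 159.6, 175.0 and 167.1 CPM in control and 165.6, 164.7 and 166.5 CPM in doxycycline libraries. With dTAG-13 it gave 142.6, 144.3 and 139.3 CPM, and with both agents 141.5, 139.3 and 141.9 CPM. All 6 libraries with dTAG-13 were below all 6 without, and no difference with doxycycline passed the test (-0.014 against control, adjusted p = 0.749), although with the length and GC offset that value was -0.084 and called. Erap1 fell by 0.23 both against control (SE 0.028, adjusted p = 2.3e-09) and among doxycycline cells (SE 0.029, adjusted p = 3.28e-09), and by 0.195 and 0.101 with the length and GC offset. Its span, chr13:74639573-74693205, overlaps the protein-coding gene Cast, so some reads may belong to either.

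**Figure D3:**
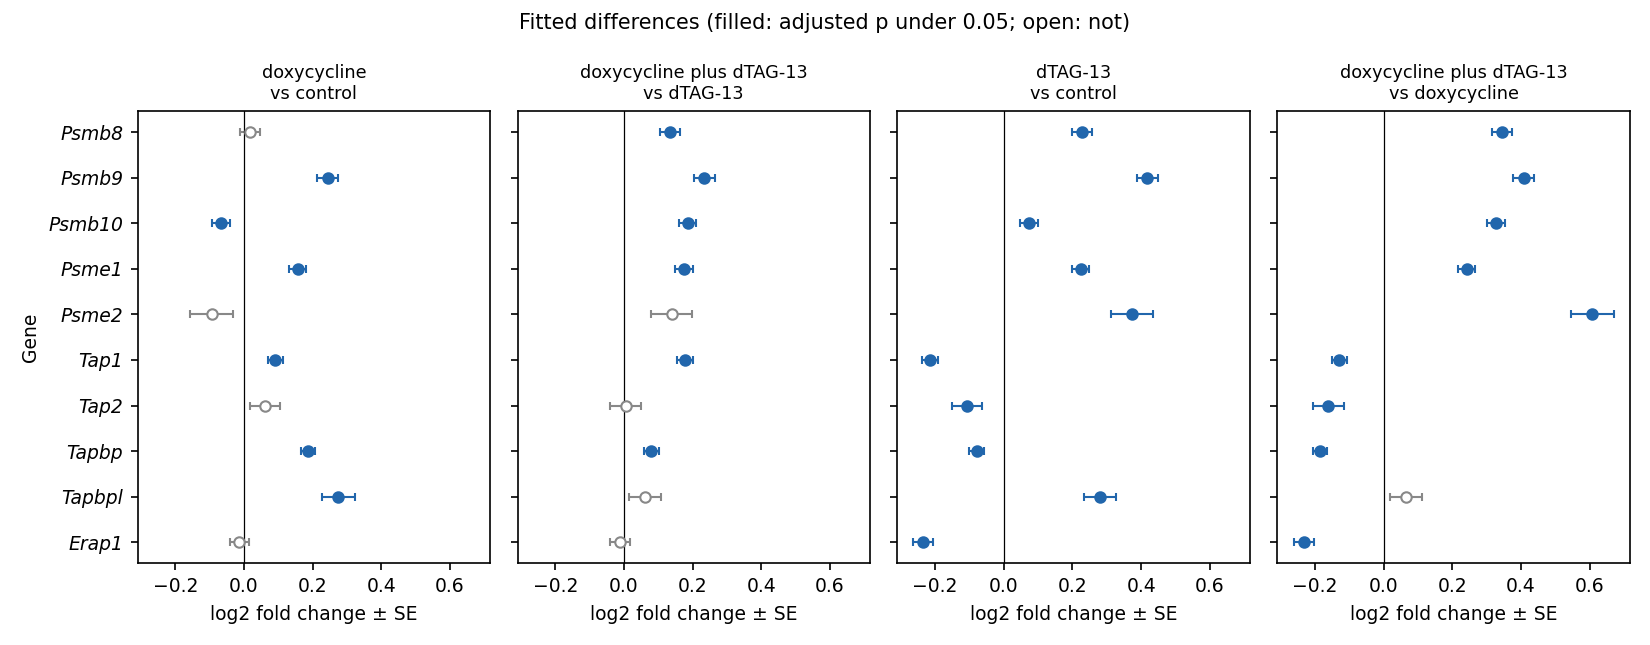
Fitted log2 fold changes with their SE (horizontal axes) for the 10 genes (vertical axis) in the comparisons between pairs of groups, filled where the adjusted p in the edgeR fit was under 0.05. The interaction is not shown. In the contrast of cells with both agents against dTAG-13 cells no filled point lies below 0, while in the dTAG-13 contrasts the proteasome genes lie to the right and Tap1, Tap2, Tapbp and Erap1 to the left.

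**Figure D4:**
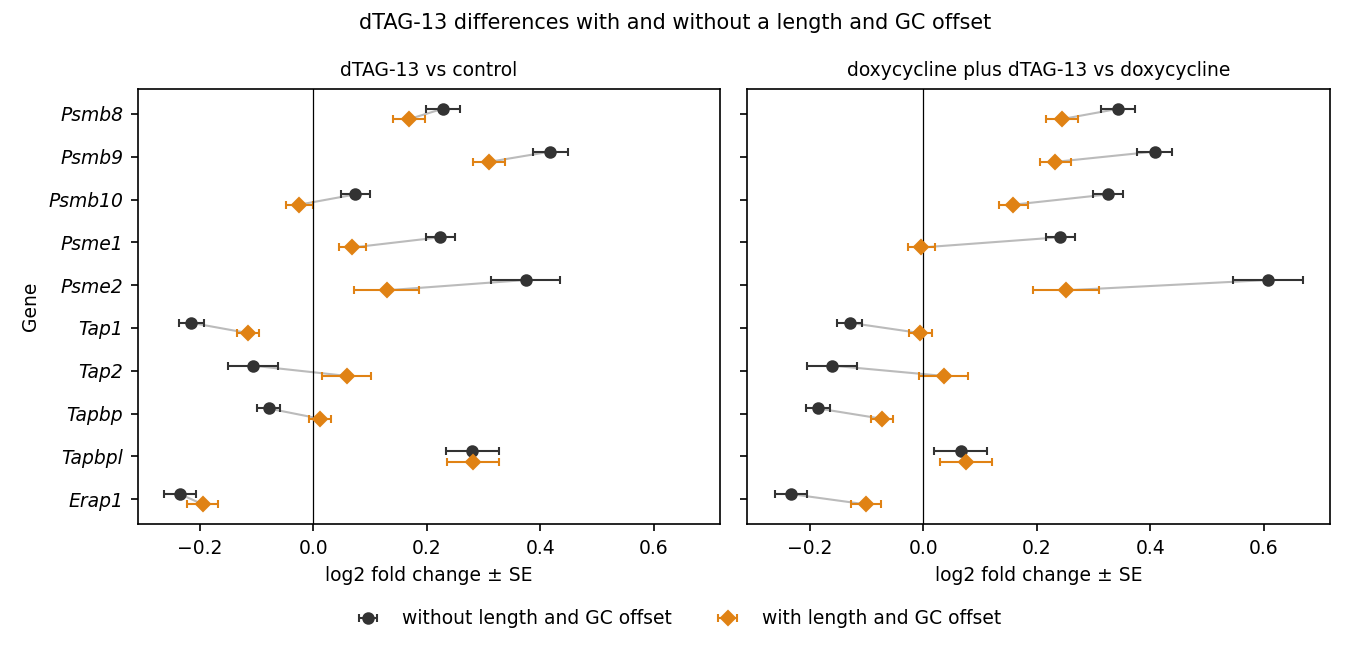
Log2 fold changes with their SE for dTAG-13 against control and for both agents against doxycycline, without the length and GC offset (black circles) and with it (orange diamonds). Psmb8, Psmb9 and Psme2 stay right of 0 in both panels, Psme1 lies at -0.003 in the right one, and Tap2 crosses 0 in both.

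When doxycycline was compared within cells that had dTAG-13, 6 of the 10 genes rose and none fell, beside 20.4% of all tested genes called (10.7% higher and 9.64% lower). The groups did not overlap for 7 of the 10, beside 34.3% of all genes. Psmb9 rose by 0.23 (SE 0.03, adjusted p = 1.13e-07), Psmb10 by 0.19 (adjusted p = 3.37e-07), Tap1 by 0.18 (adjusted p = 5.67e-08) and Psme1 by 0.18 (adjusted p = 9.44e-07). Over all genes the median here was 0.087 in the shortest eighth by length and -0.027 in the longest, and with the length and GC offset the Psme1 rise was 0.109. Psmb8 rose by 0.13 (adjusted p = 0.00175) and Tapbp by 0.08 (adjusted p = 0.00402), the last of which was 0.045 and not called with library size scaling. The median of the 10 was 0.137 against -0.001 over all genes. For Psme2 the value was 0.14 (SE 0.059, adjusted p = 0.0927), which was 0.225 and called without dTAG-13 library 1, the highest of its group. Tap2 (0.006), Tapbpl (0.061) and Erap1 (-0.012) did not pass the test.

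The interaction asks whether the dTAG-13 difference among doxycycline cells differs from that among cells without it. It was called for 6 of the 10 genes, 4 with a more positive and 2 with a more negative dTAG-13 difference in doxycycline cells, beside 22.9% of all tested genes (13.2% and 9.64%). With library size scaling it was called for 3, 1 more positive and 2 more negative, beside 818 and 2424 of all 12910 tested genes. The value for Psmb10 was 0.25 (SE 0.036, adjusted p = 1.23e-06), since dTAG-13 raised it by 0.33 with doxycycline and by 0.074 without. That for Tapbpl was -0.21 (SE 0.066, adjusted p = 0.0157) and that for Tapbp -0.11 (SE 0.029, adjusted p = 0.00622). Psmb8 (0.12, adjusted p = 0.0499), Psme2 (0.23, adjusted p = 0.0469) and Tap1 (0.086, adjusted p = 0.0424) lay near the threshold, and with the length and GC offset Psmb8 (0.076) and Psme2 (0.122) were not called. Psmb9 had nearly the same dTAG-13 difference in both settings, with an interaction of -0.01 (SE 0.044, adjusted p = 0.903). Over all genes the interaction also went with length, with a median of 0.129 in the shortest eighth and -0.056 in the longest.

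The standard catalytic subunits give the immunosubunits their counterpart. Beside their counts, 18.7% of all tested genes were called lower with doxycycline. With dTAG-13 30.0% were called higher against control and 30.7% among doxycycline cells, and 13.2% had a more positive interaction. All 3 fell with doxycycline against control, Psmb7 the most (-0.22, SE 0.041, adjusted p = 0.00105), Psmb5 by 0.14 (adjusted p = 0.00295) and Psmb6 by 0.13 (adjusted p = 0.000128). All 3 rose with dTAG-13, Psmb6 by 0.24 against control and by 0.51 among doxycycline cells (adjusted p = 2.25e-10 and 6.45e-20), and the interaction was called for all 3, though not for Psmb7 with library size scaling (0.145, adjusted p = 0.0944). Under the length and GC offset none of them was higher with dTAG-13 against control, and Psmb7 was then lower (-0.08, adjusted p = 0.0266). In doxycycline cells 2 of the 3, Psmb5 (0.212) and Psmb6 (0.179), were still called higher with dTAG-13 under it.

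Within a library, the ratio of CPM per kb between paired subunits does not depend on how libraries are scaled. Psmb9 over Psmb6 was 0.277, 0.278 and 0.282 in control, 0.352, 0.364 and 0.371 in doxycycline, 0.327, 0.314 and 0.306 in dTAG-13 and 0.326, 0.348 and 0.34 in cells with both agents. All 9 libraries with an added agent were above the 3 controls. Psmb8 over Psmb5 was 1.71 ± 0.053 (SD, n = 3) in control and 1.9 ± 0.064 in doxycycline cells, which did not overlap, and 1.69 ± 0.0063 and 1.71 ± 0.053 in the dTAG-13 groups without and with doxycycline. With the length and GC offset the control libraries ranged from 1.6 to 1.68, and the dTAG-13 libraries, at 1.72 to 1.78 without and 1.76 to 1.89 with doxycycline, stood above them. Psmb10 over Psmb7 was 0.631 ± 0.016 in control, 0.7 ± 0.004 in doxycycline, 0.596 ± 0.026 in dTAG-13 and 0.679 ± 0.017 in cells with both, so both doxycycline groups stood above both groups without it. With the offset the control mean was 0.598 and the dTAG-13 mean 0.621, the reverse order, and their libraries overlapped. The ratio of Psme1 to Psme2 was highest in doxycycline cells, at 6.5 ± 0.16 against 5.48 ± 0.29 in control. Tap1 over Tap2 had overlapping libraries between control and doxycycline cells (3.44 ± 0.22 and 3.5 ± 0.1). These ratios were described and not tested, and lengths differ within pairs.

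**Figure D5:**
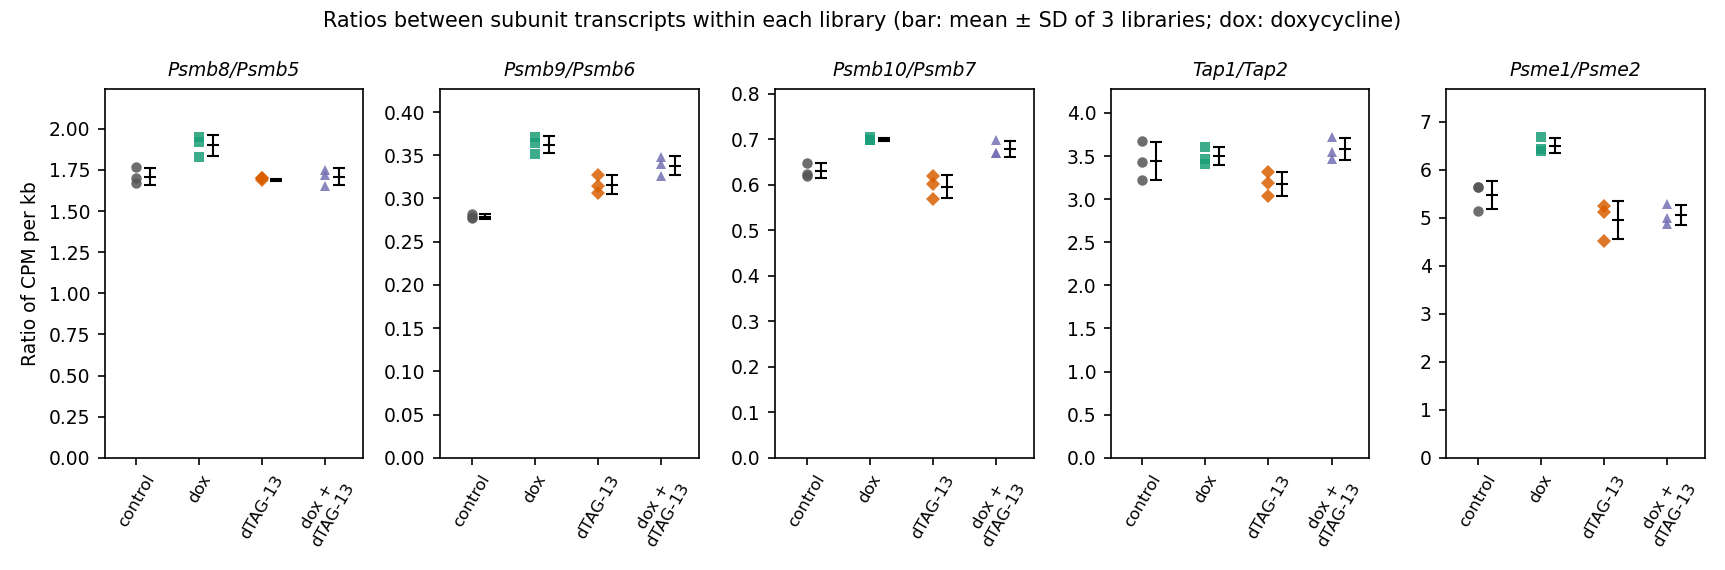
Ratios of CPM per kb between paired transcripts in each library (points), with the mean and SD of 3 libraries, for the 4 groups (horizontal axis; dox is doxycycline), each panel starting at 0. Psmb9/Psmb6 is higher in all treated groups than in control (0.279), and Psmb8/Psmb5 and Psmb10/Psmb7 are higher in doxycycline cells than in control cells.

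Of 17 listed genes of the other proteasome core subunits and core assembly, 16 were tested. Beside their counts, 18.7% of all tested genes were called lower and 14.8% higher with doxycycline. With dTAG-13 30.0% of all were called higher against control and 30.7% among doxycycline cells. A more positive interaction was called for 13.2% of all, and 10.7% rose with doxycycline among dTAG-13 cells. With doxycycline 8 of the 16 fell and 1 rose (5 and 1 with library size scaling, 10 and 1 with the length and GC offset), with Psmg3, an assembly chaperone, the lowest at -0.25 (adjusted p = 0.000168). With dTAG-13 14 rose and none fell against control, and all 16 rose among doxycycline cells, with Psma3, an alpha ring subunit, at 0.36 and 0.66 (0.051, not called, and 0.358 with the offset). Under the offset these counts were 0 higher and 8 lower against control, and 9 higher and 4 lower among doxycycline cells. Their interaction was called higher in 13 and in none lower (9 with library size scaling, 10 with the offset), led by Psma5 (0.35, adjusted p = 0.000171). In cells with dTAG-13, 11 of the 16 rose with doxycycline (7 with library size scaling, 4 with the offset), most of all Psmg4 (0.27, but 0.146 and not called with the offset). Of the other activators, Psme3, the nuclear PA28 gamma, fell by 0.14 with doxycycline (adjusted p = 2.45e-06), and Psme4, or PA200, fell by 0.38 with dTAG-13 against control and by 0.64 among doxycycline cells, or 0.229 and 0.399 with the offset.

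Of 5 chaperones of the loading route, 1 was called with doxycycline, the lectin Canx (-0.05, adjusted p = 0.0269), beside 33.5% of all tested genes. Library size scaling called 1 higher and none lower, and the length and GC offset 3 lower, Canx then at -0.102. With dTAG-13 against control 1 rose and 4 fell, beside 30.0% and 32.1% of all tested genes. Among the chaperones that fell was Uggt1, which re-glucosylates unloaded class I, at -0.29 (adjusted p = 1.31e-14). Library size scaling gave 1 higher and 2 lower, the length and GC offset 2 and 2, and under the offset Uggt1 was higher (0.087, adjusted p = 0.000639). Among doxycycline cells 1 rose and 3 fell (2 and 3 with library size scaling, 2 and 2 with the offset), beside 30.7% and 33.4% of all tested genes. Uggt1 was at -0.35 there (0.094 with the offset). Ganab, a glucosidase subunit, fell by 0.12 with doxycycline among dTAG-13 cells (adjusted p = 3.06e-05), and Calr, the soluble lectin partner of Canx, had an interaction of 0.097 (adjusted p = 0.007), not called with library size scaling. Of 7 peptidases, 4 fell and none rose with dTAG-13 against control, beside 62.1% of all tested genes called (32.1% lower). Library size scaling gave 2 higher and 4 lower, and the offset 1 and 5. The largest fall was that of Tpp2, a cytosolic tripeptidyl peptidase, at -0.55 (adjusted p = 2.09e-20), or -0.591 with the offset. Tpp2 also fell by 0.51 among doxycycline cells. With doxycycline 2 peptidases rose and 3 fell (2 and 2 with library size scaling), beside 14.8% and 18.7% of all tested genes. Lnpep, an endosomal aminopeptidase, rose by 0.24 (adjusted p = 0.000125), or 0.145 with the offset, with an interaction of -0.38. Npepps, a cytosolic aminopeptidase, fell by 0.15 with doxycycline among dTAG-13 cells (adjusted p = 4.36e-05).

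Of the 3 MHC class I chains, B2m, the light chain, rose with doxycycline by 0.22 (SE 0.038, adjusted p = 0.0019) and H2-D1 fell by 0.088 (adjusted p = 0.0472). With dTAG-13 edgeR called none of the 3 chains in either setting, beside 62.1% and 64.1% of all tested genes. At an unadjusted p under 0.05, none passed against control and 1, H2-D1 (0.075), among doxycycline cells, and DESeq2 called 0 and 1. With library size scaling 1 chain was called higher in each of the dTAG-13 comparisons, with the length and GC offset 2 were called lower against control, and among doxycycline cells 1 higher and 1 lower. B2m also rose with doxycycline among dTAG-13 cells (0.13, adjusted p = 0.0454), a call lost with library size scaling and with the offset.

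Nlrc5 is the transactivator of MHC class I genes and of several of the 10 genes here. It gave 89.67, 86.21 and 89.68 CPM in control, 108.1, 106.0 and 102.5 CPM in doxycycline, 71.17, 78.64 and 71.12 CPM in dTAG-13 and 88.08, 86.44 and 85.6 CPM in cells with both. Doxycycline libraries were highest and dTAG-13 libraries lowest, as for Tap1 and Tapbp. The 5 proteasome genes differed from this, since all of them rose with dTAG-13 against control in the fit without the length and GC offset. With doxycycline Nlrc5 rose by 0.25 (SE 0.035, adjusted p = 2.04e-07), and it fell by 0.27 with dTAG-13 against control (SE 0.036, adjusted p = 3.11e-08) and by 0.29 among doxycycline cells (adjusted p = 3.97e-09). Its transcript of 6945 bases is in the longest eighth, and both falls turned to rises with the length and GC offset, of 0.101 (adjusted p = 0.0117) and 0.142 (adjusted p = 0.000503).

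Of all 16 regulators on the list (interferon receptor signalling, interferon regulatory factors and the class I enhanceosome), 8 rose and 2 fell with doxycycline (10 and 1 with library size scaling). Beside this, 14.8% of all tested genes were called higher and 18.7% lower. Stat2, a transcription factor of type I interferon signalling, rose the most, by 0.55 (SE 0.035, adjusted p = 3.92e-16), from 61.2 ± 0.817 to 89.35 ± 1.78 CPM (SD, n = 3), and it rose by 0.41 with doxycycline among dTAG-13 cells. With dTAG-13 against control 4 rose and 8 fell, but library size scaling gave 7 and 5 and the length and GC offset 8 and 6. Of all tested genes, 30.0% were called higher and 32.1% lower in that comparison. Nfyc, an NF-Y subunit, fell by 0.44 there (adjusted p = 7.72e-09), and by 0.519 with the offset. Among doxycycline cells 3 rose and 9 fell, or 6 and 5 with the offset, beside 30.7% of all tested genes called higher and 33.4% lower. Jak1, a cytoplasmic kinase bound to cytokine receptors, was at -0.43 there, or -0.197 with the offset. In cells with dTAG-13 6 rose and none fell with doxycycline (4 and 2 with library size scaling), beside 10.7% and 9.64% of all tested genes. For Rfx5, of the RFX complex, the interaction was -0.31 (adjusted p = 0.0231), and it was not called with the offset (-0.256, adjusted p = 0.0564).

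The profiles of the 10 genes over the 12 libraries were compared by the root mean square difference of log2 CPM after centring each gene on its own mean. The closest pairs were Tap1 and Tapbp (0.057) and Psmb8 and Psmb10 (0.062), and the farthest were Psme2 and Erap1 (0.378). The neighbours Psmb9 and Tap1 differed by 0.301. Among 11557 genes whose mean reached 1 CPM, the profiles nearest to Psmb9 were those of Blvrb (0.0406), Birc2 (0.0486) and Esd (0.0499). The nearest to Psme2 were Uqcrq (0.056), Hint1 (0.0608) and Coa3 (0.0616), and to Psme1 Zadh2 (0.0309), Mcrip1 (0.037) and Gstp1 (0.0396). All the points share the same 12 libraries and 4 cultures, so these are descriptions with no test.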

How the data were processed

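Per the labels' protocols, poly(A) RNA was captured on oligo(dT) beads and prepared with an NEBNext Ultra II kit. The authors deposited raw counts per Entrez gene for 12 libraries in 1 table, with Subread named in the column names per the file headers. Per the submitters' processing notes, bcl2fastq 2.17, featureCounts and the build mm10 were used. Neither the strand setting nor how multi-mapping reads were treated is given in the sources used here. Symbols came from RefSeq GRCm38.p6 (25275 IDs) and GENCODE M21 (18 IDs), and 1886 IDs stayed unnamed.

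Counts were tested in R 4.3.3 with edgeR 4.0.16 (TMM, filterByExpr by group, robust glmQLFit, glmQLFTest, 1 fit of all 12 libraries, two-sided), with Benjamini-Hochberg adjustment over 12910 genes and a threshold of 0.05. A negative log2 fold change is lower in the group named first. CPM used TMM library sizes, and per-kb levels the mean length of curated RefSeq transcripts. Alternatives were DESeq2 1.42.0, other scalings and filters, fewer groups, the replicate number as a block, an offset per library from splines (5 degrees of freedom) of length and GC content, and each library left out in turn. On simulated counts for doxycycline against control with 12800 genes, 86.7% of 98 genes changed by 0.5 log2 were recovered, 89.0% of 100 changed by 1, and 0.071% of the unchanged genes were called. Only 200 genes were changed, far fewer than the 4331 called in the data. Changes under 0.5 log2 were not simulated, so recovery at most of the differences reported here is not known.

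The 10 genes and the pathway lists were chosen with earlier results of these data known. Named were all 10 genes, Psmb5, Psmb6, Psmb7 and Nlrc5, from each pathway list and contrast the called gene with the largest absolute change and a mean of at least 1 CPM, and, for the 3 genes of widest range, the 3 most similar profiles. H2-D1 was named as a called gene after its values were seen.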

Additional observations from a re-analysis of the deposited data

Results flagged for a closer look

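For 6 of the 10 genes the dTAG-13 difference differed between cells with and without doxycycline by the interaction term of the edgeR fit (log2, with doxycycline minus without). The same term was called for 22.9% of all tested genes (13.2% more positive and 9.64% more negative). Psmb10 gave 0.252 (adjusted p = 1.23e-06, 3 libraries in each of the 4 groups), and the value was 0.184 with the length and GC offset and 0.181 with library size scaling, both called. This was not particular to Psmb10. The standard subunits gave 0.259 (Psmb5), 0.27 (Psmb6) and 0.215 (Psmb7). The other core subunit and assembly genes had a median of 0.231, with 13 of 16 called more positive. Tapbpl gave -0.214 and was not called without control library 3 (-0.158). Tapbp gave -0.107 and was called under every alternative run.

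Psme2 gave 0.233, not called with library size scaling (0.163), DESeq2 (0.244), the length and GC offset (0.122) or without any single library other than control 3, dTAG-13 1 or 3 with both agents (0.177 to 0.308 over the 12). Psmb8 gave 0.116, not called with library size scaling (0.046), a filter of 1 CPM in 3 libraries (0.119), the offset (0.076) or without any single library other than control 3, doxycycline 3 or 2 with both agents (0.092 to 0.157 over the 12). Tap1 gave 0.086, not called with library size scaling (0.016), no filter (0.087), the replicate block (0.086) or without any single library other than control 3, dTAG-13 3 or 2 and 3 with both agents (0.069 to 0.104 over the 12).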

How the results depend on the processing

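Of 990 refits of the 50 member results, 890 kept direction and side of the threshold, 65 lost the call, 4 gained it and 31 changed sign, and 28 results were the same under every alternative. Members called in the interaction went from 6 to 3 with library size scaling and ranged from 3 to 5 with 1 library left out. Signs turned with the length and GC offset for Psmb10 (dTAG-13 vs control, -0.025), Psme1 (both agents vs doxycycline, -0.003; interaction, -0.073), Tap2 (dTAG-13 vs control, 0.059; both vs doxycycline, 0.036), Tapbp (dTAG-13 vs control, 0.012) and Erap1 (both vs dTAG-13, 0.009). With library size scaling they turned for Psme1 (interaction, -0.053), Tap2 (both vs dTAG-13, -0.028), Tapbp (dTAG-13 vs control, 0.013) and Erap1 (doxycycline vs control, 0.022, and interaction, -0.069). With 1 library left out, values not called in the report spanned 0 for Psmb8 (doxycycline vs control, -0.021 to 0.044), Psmb9 (interaction, -0.049 to 0.016), Psme1 (interaction, -0.001 to 0.033), Tap2 (both vs dTAG-13, -0.02 to 0.034, and interaction, -0.101 to 0.008) and Erap1 (doxycycline vs control, -0.051 to 0.031, both vs dTAG-13, -0.024 to 0.003, and interaction, -0.039 to 0.041). Of 931 refits of 47 pathway gene results 878 were the same, 38 lost the call and 15 changed sign. With the offset, Nlrc5 gave 0.101 (dTAG-13 vs control), 0.142 (both vs doxycycline) and 0.04 (interaction), Psmb7 -0.08 (dTAG-13 vs control), and Uggt1 0.087 and 0.094 (dTAG-13 vs control, both vs doxycycline). Psmb7 in both vs dTAG-13 was 0.002 with RLE factors and with DESeq2, 0.006 with no filter and -0.025 to 0.032 with 1 library left out, and Nlrc5's interaction was -0.054 to 0.023. The cause was not tested for the sign changes.

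Deviations of libraries with the same number correlated at -0.201 to 0.186 (18 pairs) and of different numbers at -0.174 to 0.277 (36 pairs). These ranges show no pairing of the libraries by number, but with 3 libraries in each group they cannot exclude one. With the replicate number as a block, the calls of Psmb10 (doxycycline vs control, -0.066, adjusted p = 0.062), Tap2 (dTAG-13 vs control, -0.106, adjusted p = 0.0505) and Tap1 (interaction, 0.086, adjusted p = 0.0594) were lost, and 47 of the 50 member results were the same. Same-group library pairs differed by a chi-square per degree of freedom of 2.376 to 8.376, beyond counting noise. Depth limits Psme2 and Tapbpl the most, at 22.01 to 43.5 CPM.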
